A study of Drosophila melanogaster with 20 samples.

Results

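The comparison described here is that of Drosophila melanogaster embryos carrying mef2(113), the strongest of 3 hypomorphic alleles of mef2, with the control, in 8 of the 20 arrays of an allelic series (4 arrays per genotype). The arrays were chosen by their titles, which give the allele. The control was the dp cn a px sp stock, the stock that was mutagenised to produce the alleles 65, 424 and 113. The other genotypes, used here only to place 113, were mef2(65), mef2(424) and the null mef2(22.21). The labels rank Mef2 levels as control above 65, then 424, then 113, with the null lowest. Each sample was a pool of 150 whole embryos from a collection of 30 min, aged for 6.5 h at 25 °C, staged individually and taken at mid stage 13. Mutant embryos were picked as those without the GFP that marks the CyO balancer chromosome. All cells of the embryo enter each sample, so fewer cells of a type and less RNA per cell cannot be told apart. Whether the 4 pools of a genotype were collected independently is not said in the labels. The p-values therefore reflect only array-to-array spread, and that spread could be technical.

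Mef2 is a MADS-box transcription factor made in the mesoderm and its muscle descendants. It binds AT-rich sites in the control regions of muscle genes and is required for somatic, visceral and heart muscle to differentiate, with Twist acting upstream of it. Myoblasts are specified as founder cells and fusion-competent cells, fuse into fibres, and then build sarcomeres and attach to tendon cells through integrins. Stage 13 falls in the early part of that differentiation, when sarcomere genes are being switched on. The question the design poses for 113 is which genes of the embryo respond at a Mef2 level just above the null.

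The arrays were comparable in overall signal. Signals are linear MAS5 values per probe set, and the median signal lay between 35.3 and 36.8 in the 113 arrays and between 35.5 and 37.3 in the control arrays. Across genes, which are not independent replicates, Pearson r was 0.966 to 0.974 within 113, 0.967 to 0.976 within the control and 0.950 to 0.964 between them. Replicates 1 to 4 of both genotypes were scanned on the same days 1 to 4. The fluidics modules of the wash station differed: all 4 control arrays ran on module 4 and the 113 arrays on modules 3 and 2, so 0 modules held both genotypes. Mef2 itself, Mhc, Act57B, Tm1 and wupA have no probe set that names them as its single gene. They were not analysed here, so the level of the mutated gene is not checked. Probe sets with several gene symbols were not searched for them.

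Of 8356 genes tested, 617 (7.38%) passed an adjusted p of 0.05 in 113 against the control, by limma with Benjamini-Hochberg adjustment over all genes. Of these, 287 (3.43%) rose and 330 (3.95%) fell. A log2 change is the difference of mean log2(signal + 16), and it was at least 2-fold for 28 of the genes that rose and 56 of those that fell. For 562 of the 617 the 4 arrays of 113 lay wholly beyond the 4 control arrays, as they did for 1038 (12.4%) of all genes tested. The sign was the same on each of the 4 scan days for 607 of them. For the 562 this follows from the lack of overlap, so the count adds little. With the scan day as a block 712 genes were called. With the module as a block, which can compare 113 with the control only through the other genotypes, 82 were called, among them 81 of the 617. Under that block 616 of the 617 kept their sign, and the median size of their change was 0.590 on the log2 scale against 0.594, while the standard error grew 1.85 times. Of the genes named below as called against the control, those still called with the module as a block were ACXD, Argk1, CG13937, CG3348, CG34247, CG3552, CG3690, CG3734, CG5039, CG5376, CG6972, Drsl5, Eato, Mlc1, Mlc2, Msp300, Nep2, Pepck2, Prosbeta2R2, Rab32, Rpt5, Sid, Smyd4-2, Tm2, TpnC73F, bt, jhamt, larp, lmd, mwh, mys, sing, udd and up, and the calls of the other genes named were lost there. In the null, 2 arrays ran on module 3 and 2 on module 4. Their module difference at the 617 genes, taken in the direction of the 113 change, had a median of 0.00326 on the log2 scale, and it pointed the same way for 313 of them. Module 2, which held replicates 2 and 4 of 113, had no null array, so this difference does not cover it. The null arrays of modules 3 and 4 were also scanned on different days.

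**Figure D1:**
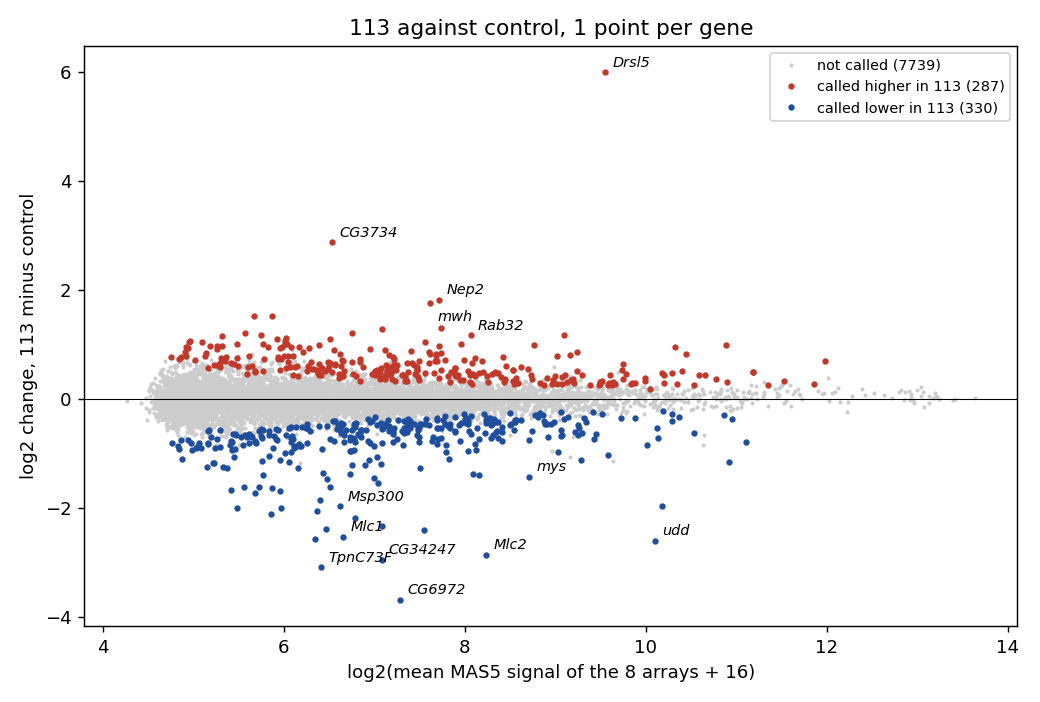
Log2 change of 113 against the control (vertical axis) by mean signal over the 8 arrays (horizontal axis, log2 scale), 1 point per gene. Red marks the 287 genes called higher and blue the 330 called lower, with Drsl5 at 6.0 and CG6972 at -3.68 at the extremes.

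Sarcomere genes were among those that fell furthest in 113. Of 32 listed sarcomere and Z-disc genes 26 were on the array and 17 were bright enough to test. Of these 17, 9 fell and 1 rose (58.8% called, against 7.38% over all genes). The median log2 change was -0.77, beside 0.00 over all genes tested. Mlc2, a regulatory light chain of myosin in muscle, gave signals of 517, 522, 570 and 449 in the control and 66.8, 55.0, 56.0 and 52.6 in 113. The 2 groups were far apart, and the log2 change was -2.85 ± 0.13 (SE; adjusted p = 6.49e-14), 7.20-fold lower. Mlc1, the essential light chain, gave 159, 170, 179 and 114 in the control and 23.7, 5.52, 21.9 and 7.37 in 113, a log2 change of -2.52 ± 0.19. TpnC73F, a troponin C that binds the calcium that starts contraction, went from 182, 113, 154 and 97.9 to 3.11, 0.675, 1.72 and 1.48. Its 113 signals all lay under 9.29, the level of the filter on dim probe sets, so the size of its log2 change depends on the pseudocount: -3.07 with 16, -5.68 with 1 and -1.59 with 64.

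The other falls in the list were Tm2, up, Msp300, bt, sls and unc-45. Tm2, a tropomyosin, gave 105, 138, 112 and 106 in the control and 32.6, 35.2, 27.9 and 31.4 in 113 (log2 change -1.45 ± 0.14). The troponin T gene up gave 139, 92.2, 139 and 94.0 against 24.9, 16.1, 30.7 and 12.3 (-1.84 ± 0.21), again with no overlap. Msp300, a giant nesprin that ties nuclei and Z-discs to the cytoskeleton, gave 134, 145, 161 and 119 against 48.3, 24.2, 16.7 and 14.0 (-1.96 ± 0.20). The projectin gene bt fell by 1.18 on the log2 scale, with a 113 mean of 7.02 that lies under the filter level. The titin-like gene sls had a log2 change of -0.79 (adjusted p = 0.00340) from its brightest probe set. Its next brightest probe set went from 44.9 to 17.6 (-0.85), and the others had means under the filter level in both genotypes. The mean of all 4 probe sets, dim ones included, gave -0.38 (adjusted p = 0.164). The myosin chaperone gene unc-45 fell from 415 ± 63.6 to 235 ± 27.1 (SD, n = 4; log2 change -0.77 ± 0.12).

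The other 7 sarcomere genes tested did not pass. Act87E, an actin gene, was at 2423 ± 139 in the control and 2601 ± 157 in 113 (SD, n = 4; log2 change 0.10, adjusted p = 0.471). Act79B gave 556 and 589, and Actn, the alpha-actinin that crosslinks actin at the Z-disc, 376 and 344, with overlapping arrays in each case. The probe sets of Act87E and Act79B are of the family type (suffix _f_at). Their signals may therefore include other actins and may not show these genes alone. The log2 change of the giant kinase gene Obsc was 0.20 (adjusted p = 0.657), that of the myosin kinase gene Strn-Mlck -0.25 (adjusted p = 0.619; -0.59, adjusted p = 0.0268, with the mean of its 3 probe sets), and those of the Z-disc genes Zasp52 and Mlp84B 0.08 and -0.32. The single rise, tmod, a cap of the actin pointed end, was from 705 to 868 (log2 change 0.29), and it was lost without replicate 1 (0.27) or 2 (0.26) of 113 or replicate 2 of the control (0.27); the mean of its 3 probe sets gave -0.10. With the module as a block 7 of the 9 falls were still called, all but sls and unc-45, and leaving out any 1 array of 113 or of the control left the count of falls at 9.

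**Figure D2:**
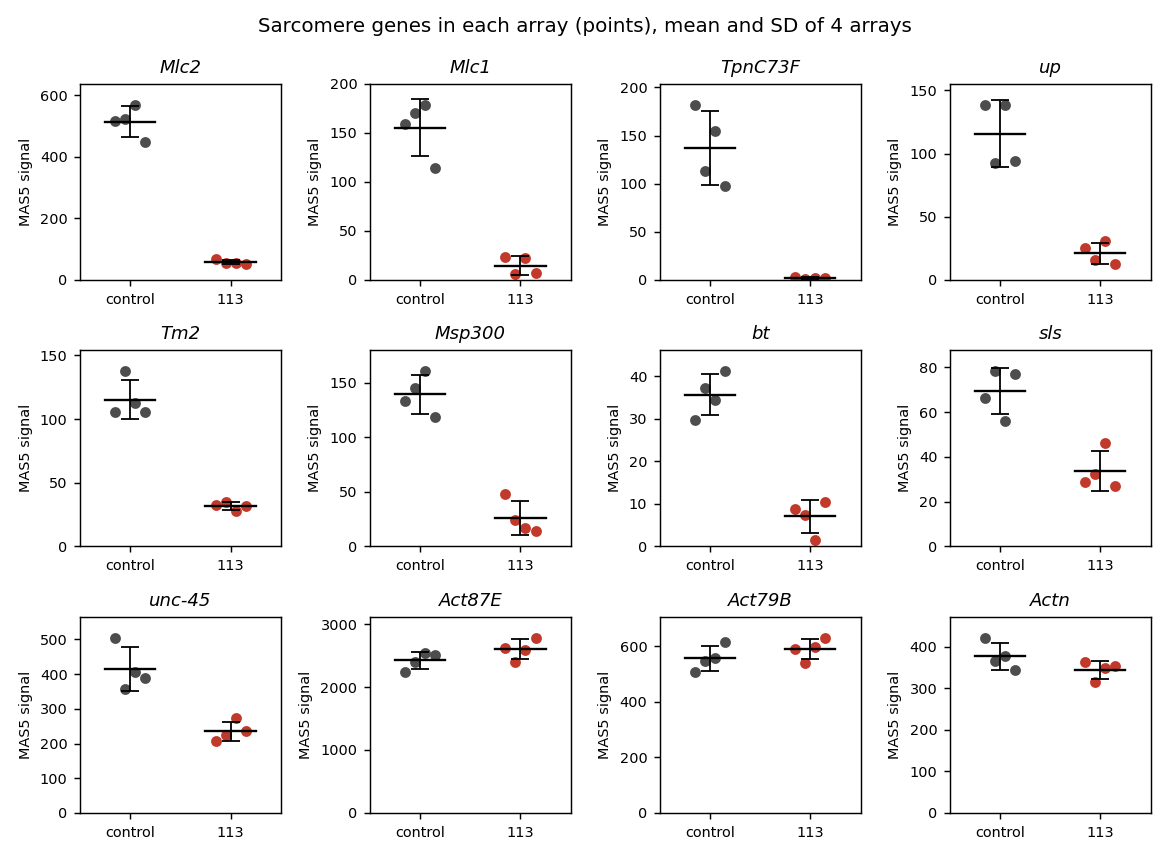
MAS5 signal (linear axis from 0) of 12 sarcomere genes in each control array (grey) and each 113 array (red), with the mean and SD of the 4 arrays. The groups do not overlap from Mlc2 to unc-45 and do for Act87E, Act79B and Actn.

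Set beside the other alleles, the sarcomere signals of 113 lay near those of the null for some genes and above them for others. Mlc2 had means of 514 in the control, 340 in 65, 185 in 424, 57.6 in 113 and 46.3 in the null. Its log2 difference between 113 and 424 was -1.43 (adjusted p = 1.72e-08), and that between 113 and the null was 0.24 (adjusted p = 0.215). Tm2 stayed higher in 113 than in the null, at 31.8 against 11.2 (log2 difference 0.83, adjusted p = 1.07e-04), and so did up, at 21.0 against 6.94 (0.70). The brightest probe set of sls was also higher in 113 than in the null (33.7 against 8.96, log2 difference 0.99). The mean of its probe sets, dim ones included, gave 0.35 (adjusted p = 0.136). For unc-45 the means of 65, 424, 113 and the null were 250, 241, 235 and 238, all below the control, and 113 differed from none of the 3 other mutants by the test (adjusted p = 0.858, 0.937 and 0.986).

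Among genes for the muscle membrane, calcium and energy, 4 of 20 tested fell and 0 rose (20% called, against 7.38% over all genes). The median log2 change was -0.09. Argk1, the arginine kinase that buffers ATP, gave 2582, 2772, 3107 and 2607 in the control and 1760, 1644, 1555 and 1475 in 113 (log2 change -0.78 ± 0.09). Every 113 array lay below every control array, and the mean of the null was lower again at 820. The calcium channel subunit gene Ca-alpha1D had a log2 change of -0.79, the sarcoglycan gene Scgalpha -0.68, and GluRIIB, a subunit of the neuromuscular glutamate receptor, -1.24 with a 113 mean of 5.43 under the filter level. Of these 4 calls, that of Argk1 held with the module as a block.

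In the myoblast fusion list 2 of 16 rose and 1 fell (18.75% called, against 7.38% over all genes, median 0.00). The gene that fell, sing, encodes a membrane protein needed for fusion; it gave 123, 175, 107 and 145 in the control and 71.9, 91.4, 74.3 and 59.1 in 113. Its log2 change was -0.76, while the null lay at 10.8, well below 113 (log2 difference 1.76, adjusted p = 3.35e-09), and 65 and 424 were at 149 and 135. The transcription factor of fusion-competent myoblasts, lmd, rose from 180, 128, 126 and 174 to 291, 219, 246 and 274 (log2 change 0.71), and Vrp1, a WASP-interacting protein that promotes actin assembly at the fusion site, from 141 to 236 (0.70). Calls of sing and lmd held with the module as a block.

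Integrin adhesion was led by mys, the beta-PS integrin subunit that anchors muscles to tendon cells. It gave 602, 564, 581 and 625 in the control and 184, 194, 239 and 234 in 113, a log2 change of -1.42 ± 0.09 (adjusted p = 9.78e-11). The means of 65 and 424 were as low, at 268 and 213, but that of the null was 445, and the difference between 113 and the null was itself called (log2 -1.01, adjusted p = 1.31e-08). Of 33 attachment and adhesion genes tested 5 fell and 1 rose (18.2% called, against 7.38% over all genes), with a median of -0.09. Fit2, a kindlin that activates integrins, fell by 0.57 on the log2 scale. The talin gene rhea rose by 0.47, and with the mean of its 2 probe sets the value was 0.27 (adjusted p = 0.0656). The calls of Tig, a muscle-attachment matrix protein (log2 change -0.52), of Grip (-0.38) and of by, a tensin (-0.83), did not hold in every fit with 1 array left out. Tig lost its call without replicate 1 (-0.48) or 2 (-0.46) of 113 or replicate 1 of the control (-0.44), Grip without replicate 1, 2 or 4 of either genotype (-0.41 to -0.32), and by without replicates 1, 2 or 3 of 113 or 2, 3 or 4 of the control (-0.88 to -0.68), so 2 falls were left without replicate 1 or 2 of 113.

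Of 20 regulators of the mesoderm tested, 3 fell and 1 (lmd) rose, with a median log2 change of -0.12; over all genes 3.95% fell and 3.43% rose. The repressor gene zfh1 gave 496, 469, 352 and 396 in the control and 270, 271, 347 and 252 in 113 (log2 change -0.56); its mean in 424 was lower still at 69.8, and the difference of 113 from 424 was 1.81 (adjusted p = 4.17e-10). The fly MyoD homologue nau fell by 0.56, with arrays at 54.6, 40.1, 54.9 and 48.2 against 26.8, 31.9, 24.5 and 29.7. Among founder identity factors 2 of 20 fell, nau and the homeobox gene Dr (268 to 175, log2 change -0.57). The Iroquois gene caup rose (0.47), a call lost without replicate 1, 2 or 4 of 113 or 2 or 3 of the control (0.39 to 0.46).

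All 9 tested members of the visceral muscle list had log2 changes below 0, with a median of -0.42, while over all genes 4170 of 8356 lay below 0. The list is not confined to that tissue: Hand and org-1 are also on the founder list, and bap and bin among the mesoderm regulators. The changes were uneven, with betaTub60D at -0.03. Of the 9, 4 fell (44.4% called, against 7.38% over all genes). The gene mib2 gave 358, 396, 336 and 388 in the control and 249, 271, 178 and 195 in 113 (-0.70). HLH54F, which specifies the longitudinal muscle founders of the gut, gave 130, 129, 115 and 116 against 97.2, 54.7, 75.0 and 74.4 (-0.62), so both genes separated the groups. The forkhead gene bin of the gut mesoderm had a change of -0.55, lost without replicate 3 of the control (-0.45), and the adhesion gene Con -0.52, lost without replicate 1, 3 or 4 of 113 or 1, 2 or 3 of the control (-0.54 to -0.44), so that 2 calls were left without replicate 3 of the control. None of these 4 calls held with the module as a block, where the list's median was -0.44. In the heart list 0 of 16 genes were called by limma (median -0.10), Doc1, a T-box gene of the cardiac mesoderm, being at 299.6 in the control and 235 in 113 (log2 change -0.32, adjusted p = 0.116).

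**Figure D3:**
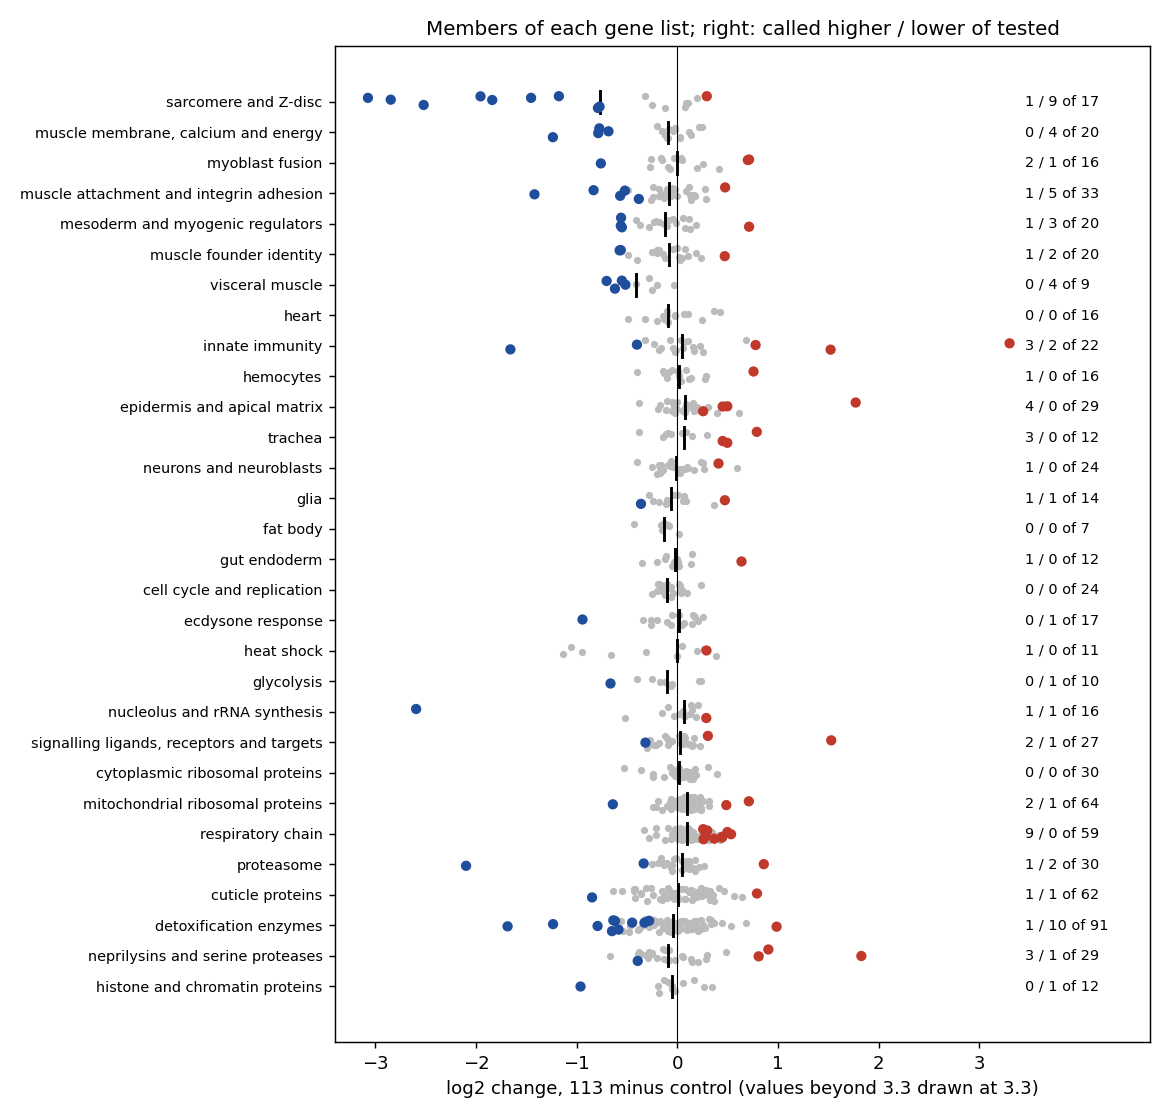
Log2 change of 113 against the control for every tested member of 30 gene lists (grey, not called; red, called higher; blue, called lower; black bar, list median; the small sideways spread of points is only for legibility). The sarcomere list has its median at -0.77 and the visceral muscle list at -0.42, and the counts at the right give calls higher and lower of genes tested.

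The largest rise of all was that of Drsl5, a member of the drosomycin family of antifungal peptides. Its signals were 15.5, 1.15, 6.96 and 6.94 in the control and 1403, 1331, 1541 and 1575 in 113. The control mean lies under the filter level, so the log2 change depends on the pseudocount: 6.0 with 16, 7.73 with 1 and 4.41 with 64. Means in 65 and 424 were also high, at 1640 and 1007, and that of the null was 8.13, as low as the control. CG3734 had arrays of 3.76, 6.87, 11.1 and 3.39 in the control and 127, 163, 153 and 146 in 113 (log2 change 2.88, with a control mean under the filter level). It was high in 113 alone: the means of 65, 424 and the null were 4.46, 7.83 and 5.64. These also lie under the filter level, so CG3734 passed the filter only through its 113 arrays.

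Nep2, a neprilysin-type metalloprotease that degrades peptides, gave 109, 79.5, 88.3 and 40.6 in the control and 314, 297, 336 and 292 in 113 (log2 change 1.83). The planar polarity gene mwh, which limits actin hairs in the epidermis, went from 77.6, 75.6, 76.2 and 60.9 to 326, 307, 293 and 225 (1.77), with means of 197, 165 and 235 in 65, 424 and the null. A proteolipid subunit of the proton pump, VhaPPA1-1, rose from 235, 363, 313 and 386 to 762, 642, 765 and 792 (1.17). Its means were 356 in 65, 337 in 424 and 718 in the null, and 113 was higher than 65 and 424 by the test (adjusted p = 4.85e-04 and 3.97e-05). The T-box gene bi went from 11.4 to 59.0 (log2 change 1.53), with means of 41.8, 46.7 and 53.8 in 65, 424 and the null. The RNA-binding protein gene larp had 108 and 289 (1.31) from its brighter probe set and 64.8 and 56.1 (-0.16) from the other. Of the 15 largest rises 5 were also higher in 113 than in 65 by the test, 9 lie on chromosome 3, 3 on chromosome 2 and 3 on X, and 7 held with the module as a block. The others among them were Anp and Rab32, described below, CG3348, CG15098, CG42326, CG2233, pigs and Prim2, with log2 changes of 1.13 to 1.52.

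The 15 largest falls fell into those lower in 113 than in 65 by the test and those where that difference did not pass. The 8 of the first kind were CG6972, TpnC73F, Mlc2, Mlc1, Smyd4-2, jhamt, CG5376 and udd. CG6972 gave 281, 258, 296 and 259 in the control and 6.07, 4.82, 13.2 and 3.31 in 113 (log2 change -3.68, 113 mean under the filter level), with means of 103 in 65, 39.6 in 424 and 8.30 in the null. The null mean also lies under the filter level. The juvenile hormone acid methyltransferase gene jhamt had means in the order in which the labels rank Mef2, with 83.9 in the control, 49.1 in 65, 23.9 in 424, 9.44 in 113 and 2.21 in the null (113 against control -2.0). Smyd4-2, a SET-domain protein gene, had means of 123 in the control, 35.9 in 65 and 21.4 in 424, and CG5376 of 56.0, 34.9 and 15.9. Their 113 means, 8.02 and 1.85, lie under the filter level. The gene udd, which acts in ribosomal RNA transcription, had signals of 1917, 1570, 1667 and 2355 in the control and 292, 268, 284 and 333 in 113 (log2 change -2.60). Its order across genotypes was not that of Mef2 level, with 450 in 65, 2600 in 424 and 388 in the null.

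The other 7 of the largest falls were CG34247, CG3552, ACXD, CG5039, Sid, Prosbeta2R2 and Oseg2. CG34247 had arrays of 235, 263, 146 and 253 in the control and 7.35, 12.1, 19 and 21.7 in 113, with means of 29.4, 20.5 and 19.3 in 65, 424 and the null. ACXD, an adenylyl cyclase, had a mean of 132 in the control and 12.9 in 113 (log2 change -2.38), and 9.51, 9.11 and 7.39 in the other mutants. Such genes were low in every mutant, the mildest included. The nuclease gene Sid (163 to 25.9) and Oseg2, an intraflagellar transport gene (117 to 16.8), showed the same, whereas CG5039 was at 210 in the control, 30.3 in 113 and 143 in 424. Of the 15 falls 13 lie on chromosome 3 and 2 on chromosome 2, for 13 the difference between 113 and the null did not pass the test, and 14 held with the module as a block.

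For markers of the other tissues in the pool the share called can be set beside the 7.38% over all genes. It was 13.8% for epidermis and apical matrix, 25% for trachea, 14.3% for glia, 8.33% for gut endoderm and 4.17% for neurons. Epidermis and apical matrix genes rose in 4 of 29 (0 fell, median 0.08) and tracheal genes in 3 of 12 (0 fell, median 0.06). The genes verm and serp belong to both lists and are counted among the rises of each, so these counts are not separate. The chitin deacetylase gene verm, which shapes tracheal tubes, gave 1974, 1963, 1970 and 1730 in the control and 3066, 2562, 2797 and 2398 in 113 (log2 change 0.50). Gasp, a chitin-binding protein of the tracheal lumen, rose from 134 ± 17.6 to 245 ± 42.3 (SD, n = 4; log2 change 0.79). The neighbouring deacetylase serp stood at 0.45, a call lost without any 1 array but replicate 4 of 113 (0.37 to 0.50), and neo at 0.26, lost without replicate 1 or 2 of 113 or 1 or 4 of the control (0.23 to 0.26). Of 24 neuronal genes 1 was called, pros at 0.40, and this was lost without replicate 2 or 4 of 113 or 1 or 3 of the control (0.36 to 0.39). In glia 1 of 14 rose, wrapper at 0.47, and 1 fell, bnb at -0.36. The call of wrapper was lost without replicate 4 of the control (0.38) and that of bnb without replicates 1, 2 or 3 of 113 or 1, 2 or 4 of the control (-0.39 to -0.29), so 0 glial genes were called without replicate 4 of the control. In the gut endoderm 1 of 12 rose, mex1 at 0.63, a call lost without replicate 3 of 113 (0.55) or replicate 2 (0.60) or 4 (0.55) of the control. In the fat body 0 of 7 and among cell cycle genes 0 of 24 were called by limma (medians -0.13 and -0.10). Of the tissue lists here, 1 call, that of mwh, held with the module as a block.

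Immune genes moved in both directions, 3 of 22 up and 2 down (22.7% called, against 7.38% over all genes). With the module as a block 1 of these 5 calls held, that of Drsl5. The antibacterial peptide gene Mtk had control signals of 69.1, 56.0, 65.5 and 11.5 and 113 signals of 3.79, 4.4, 2.56 and 2.39 (log2 change -1.66, 113 mean under the filter level). It was also low in 65, 424 and the null, at 2.27, 9.93 and 3.56. Only its control mean lies well above the filter level, so Mtk was tested mainly because the control is high. The share called in this list depends in part on such genes. Besides Drsl5 and Anp, psh, a serine protease upstream of the Toll receptor, rose from 14.4 to 36.2 (0.78). The lysozyme gene LysE (-0.40) lost its call without replicate 1, 2 or 3 of 113 or 1, 2 or 4 of the control (-0.40 to -0.32). The single call of 16 hemocyte genes (6.25%) was Pxn, a peroxidasin of the basement membrane, at 188 in the control and 333 in 113 (0.75).

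Nuclear genes of the respiratory chain rose in 9 of 59 tested, with 0 falls (15.3% called, against 7.38% over all genes). Changes lay above 0 for 48 of the 59, with a median of 0.09, and for 4186 of all 8356 genes tested. UQCR-Q, a subunit of complex III, gave 1682, 1888, 2329 and 1824 in the control and 2718, 2682, 2640 and 2807 in 113 (log2 change 0.50). The ATP synthase genes ATPsynCF6 (0.45) and ATPsynD (0.37), the complex I gene ND-ACP (0.44) and UQCR-14 (0.53) rose likewise, each with non-overlapping arrays. These 5 were called whichever array of 113 or of the control was left out. Without replicate 1 of 113 only 5 members were called. With the module as a block 0 were called by limma, where the list's median was 0.10. Mitochondrial ribosomal proteins had 46 of 64 members above 0 (2 rose, 1 fell, 4.69% called, median 0.10), and cytoplasmic ribosomal proteins 16 of 30 above 0 with 0 called. Means of ATPsynCF6 in 65, 424 and the null were 976, 862 and 776, against 885 in 113 and 644 in the control.

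Detoxification enzymes fell in 10 of 91 and rose in 1 (12.1% called, against 7.38% over all genes), with a median of -0.05. The glutathione transferase GstD1 gave 1888, 1510, 2088 and 1655 in the control and 1185, 1086, 1238 and 1088 in 113 (log2 change -0.62). GstD5, in the same gene cluster, was the one that rose, from 125 to 264 (0.99), and members of this family are similar enough in sequence that their probe sets may share signal. GstE3 on chromosome 2 fell from 835 to 532 (-0.64), with 1479 in 424. In the glycolysis list the enolase gene Eno fell from 640 ± 35 to 396 ± 37.3 (SD, n = 4, log2 change -0.67) as the 1 call of 10 (10%). The neighbouring genes Pepck1 and Pepck2, for the gluconeogenic enzyme, fell together, from 749 to 480 (-0.62) and from 625 to 418 (-0.57). Of 30 proteasome genes tested 1 rose and 2 fell (10% called), with Prosbeta2R2, named above, among the falls. The rise was that of Rpt5, an ATPase of the regulatory particle, from 414 to 763 (0.86). The gene usp, for the partner of the ecdysone receptor, fell from 111, 111, 115 and 160 to 42.7, 60.7, 54.6 and 67.5 (-0.95). Of 11 heat shock and chaperone genes 1 was called (9.09%), the constitutive chaperone gene Hsc70-4, which rose from 3345 ± 160 to 4084 ± 317 (SD, n = 4, log2 change 0.28). That call was lost without replicate 3 (0.23) or 4 (0.29) of 113 or replicate 1 of the control (0.25), and with quantile normalisation the change was 0.15 (adjusted p = 0.296).

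The genes that differed were spread unevenly over the chromosomes. On chromosome 2, where mef2 and the visible markers of the stock lie, 125 genes were called, 3.95% of those tested there. On chromosome 3 there were 407, or 11% of those tested. Chromosome 2 thus held 20.3% of the called genes with a known place (exact 95% binomial interval 17.2% to 23.7%, counting error only) and 38.0% of the genes tested, and chromosome 3 held 66.1% and 44.5%. By arm the share called was 3.95% on 2L, 3.95% on 2R, 11.3% on 3L, 10.7% on 3R and 5.79% on X. Rises and falls were about equal on the third chromosome, 204 and 203. Along each arm, cut into 10 bins of the gene order, the share ranged from 6.75% to 15.4% on 3L and from 8.65% to 14.5% on 3R, and from 1.34% to 6.71% on 2L and 2.40% to 5.39% on 2R. It ranged from 2.11% to 12.7% on X. The third chromosome's excess was not held by a single stretch. Control signals were alike, with medians of 74.0 on 2L, 73.3 on 2R, 73.1 on 3L and 69.0 on 3R. The share of genes whose 113 arrays lay wholly beyond the control arrays was 9.05%, 7.85%, 16% and 16.7% on those 4 arms. With the module as a block the called share was 0.402% on 2L, 0.419% on 2R, 1.72% on 3L and 1.54% on 3R. Genes of the third chromosome that fell include Mlc1, Mlc2 and TpnC73F. Whether the third chromosomes of the 113 and control stocks were alike is not stated in the sources used here, and its part in the result was not tested.

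**Figure D4:**
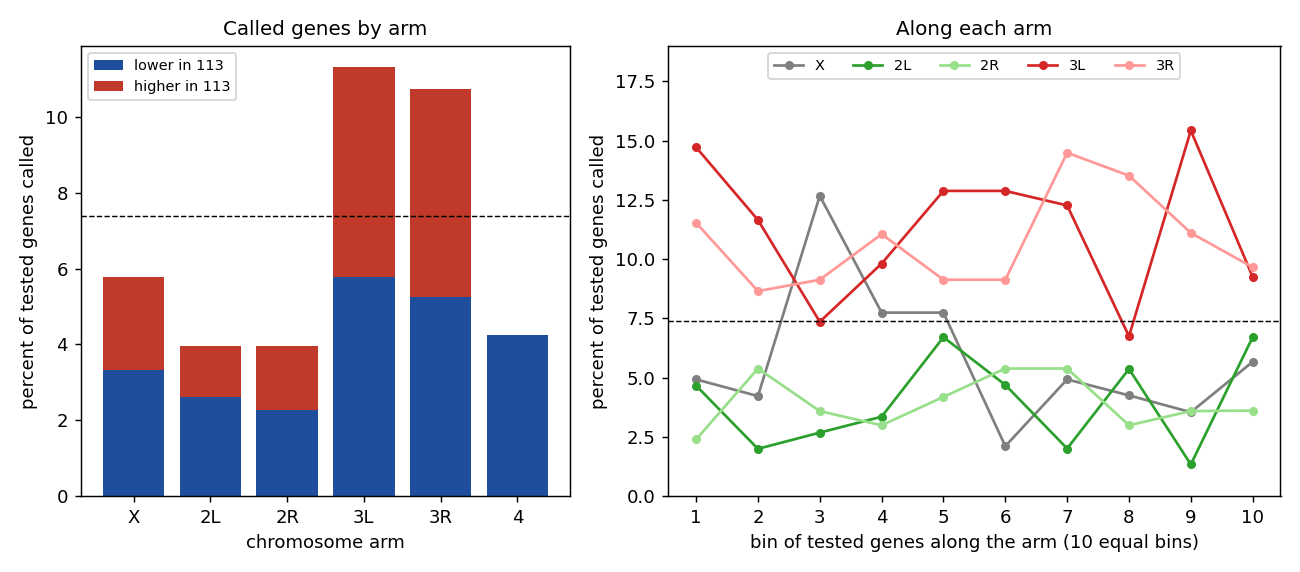
Percent of tested genes called in 113 against the control, by chromosome arm (left, lower in blue and higher in red) and along each arm in 10 bins of the gene order (right). The dashed line marks the 7.38% over all genes; every bin of 2L and 2R lies under it, and 3L and 3R reach 15.4% and 14.5%.

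Against the other mutants 113 differed least from 65. There 148 genes (1.77%) were called, 61 higher and 87 lower in 113, against 606 (7.25%) in 113 versus 424 and 1267 (15.2%) in 113 versus the null. The count against 65 fell to 92 without replicate 1, 90 without replicate 3 and 98 without replicate 4 of 113, and to 92 when only those 2 genotypes were fitted. Chromosome 2 held 27.0% of the genes called against 65, 31.4% against 424 and 47.9% against the null. The 4 largest falls of 113 relative to 65 were CG6972, Mlc2, Mlc1 and TpnC73F, 3 of them sarcomere genes, with log2 differences of -2.39, -2.27, -1.70 and -1.69. The largest rises were CG3734, Tep4, a thioester protein of the immune system (566 in 113, 69.8 in 65 and 603 in the control), Tmlh (125 against 39.9) and CG8607 (35.1 against 3.75).

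Against 424 the largest rises were ImpE2, an ecdysone-inducible gene (834 in 113, 51.9 in 424), CG3734, Anp and CG10591 (4418 against 1188). The falls were udd, CG3690 (34.2 against 231), CG6293 (9.93 against 77.6) and CG5039. For ImpE2 and CG10591 the control means, 728 and 4090, were close to those of 113. Against the null the largest rises were Drsl5, the snoRNA host gene Uhg1 (299 in 113, 3.29 in the null), MFS18 (290 against 10.3) and CG3734. The largest falls were RanBPM (31.1 against 389), CG13427 (757 against 3256), Nop60B, a pseudouridine synthase (5.02 against 71.3), and Tsp42Ek, a tetraspanin (41.3 against 208). Control means of these genes other than Drsl5 and CG3734 were near those of 113, such as 318 for Uhg1 and 36.6 for RanBPM.

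In 13 genes (0.156%) 113 differed in the same direction from each of the other 4 genotypes, 7 higher and 6 lower. CG3734, given above, had the largest change, but it passed the filter on dim probe sets only through 113. Anp, which encodes the antibacterial peptide andropin, gave 20.8, 4.17, 12.4 and 21.9 in the control and 76.5, 62.0, 85.2 and 58.5 in 113 (log2 change 1.52), with means of 24.4, 6.34 and 11.7 in 65, 424 and the null. Rab32, a small GTPase of lysosome-related organelles, gave 165, 139, 122 and 174 against 366, 390, 339 and 324 (1.17), with 199, 241 and 228 elsewhere. The 113 arrays of both genes lay above all arrays of the control. CG13937 was at 72.7, 69.7, 71.5 and 68.0 in 113 and at 29.1, 31.5, 32.2 and 17.1 in the control (1.01). Tina-1 rose by 0.64 from its brighter probe set, though the mean of its 2 probe sets gave 0.14 (adjusted p = 0.629).

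The other genes higher in 113 were Tmhs and CG9743, with smaller changes of 0.52 and 0.45. Tmhs lost its call without replicate 3 of 113 (0.48) or replicate 2 of the control (0.48), and CG9743 without replicate 2 of the control (0.38). CG6171 was lowest in 113, with 35.4, 30.0, 9.90 and 21.1 against 63.2, 63.1, 81.7 and 66.1 in the control (log2 change -1.12) and means of 62.8, 74.1 and 93.9 in 65, 424 and the null. The RNA-binding protein gene Hrb87F gave 396, 518, 419 and 494 in 113 and 639, 682, 674 and 811 in the control (-0.61). Scp2, a sarcoplasmic calcium-binding protein (-0.79), CG6912 (-0.78), the cytochrome P450 gene Cyp9f2 (-0.65) and Eato, an ABC transporter (-0.53), completed the set. Eato had -0.36 (adjusted p = 0.107) from the mean of its 2 probe sets. The number of such genes was 7, 8 and 7 without replicate 1, 2 and 3 of 113, and CG3734, Rab32, CG13937 and Eato still differed from the control with the module as a block.

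**Figure D5:**
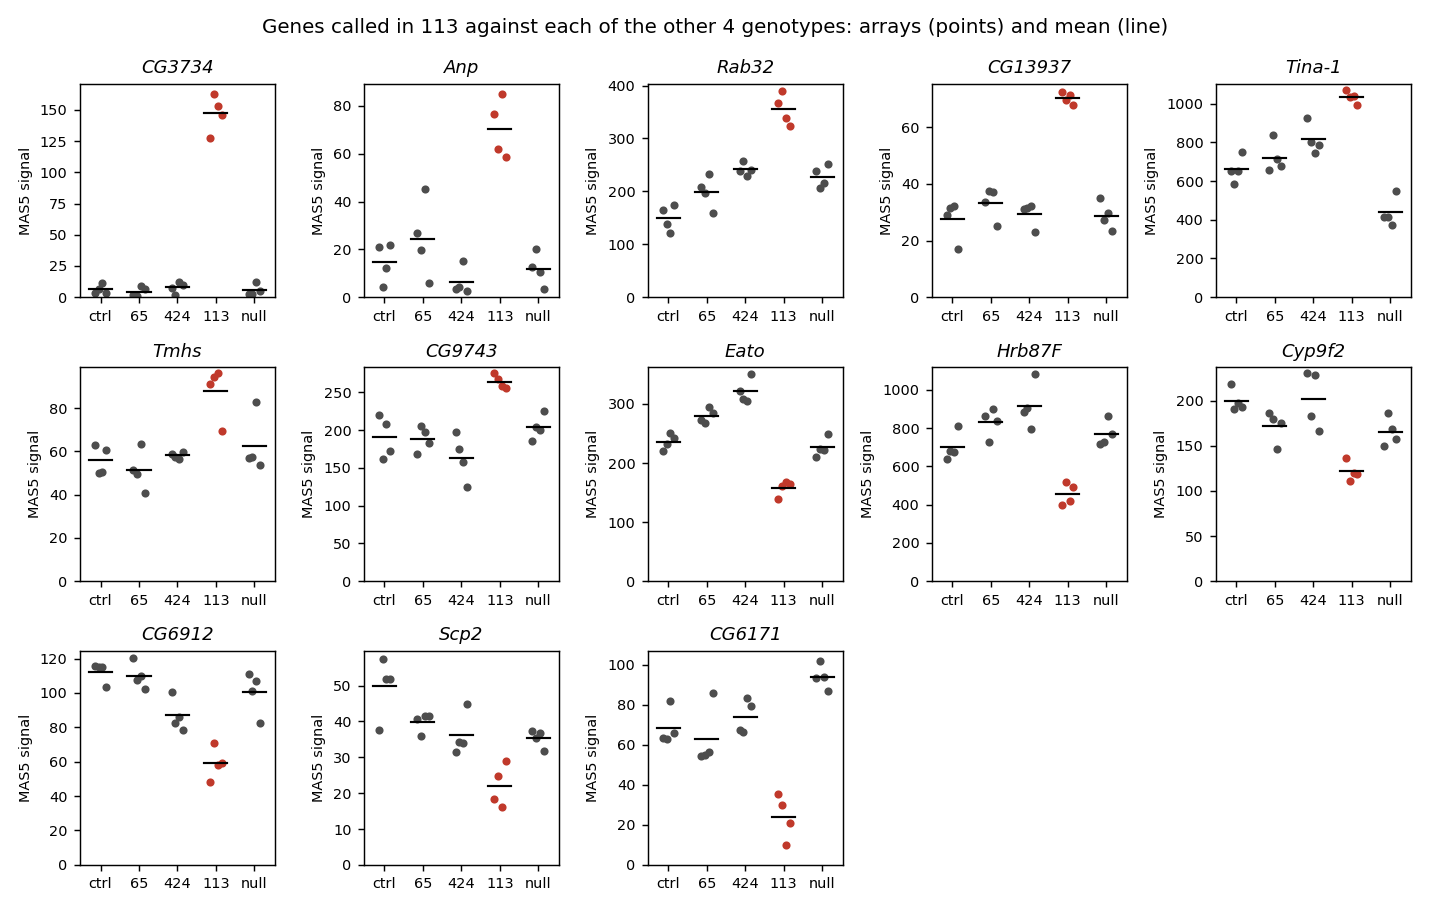
MAS5 signal (linear axes from 0) of the 13 genes in which 113 differed from each other genotype in the same direction, in the 4 arrays (points, 113 in red) and as the mean (line) of each of the 5 genotypes. CG3734 shows the widest gap, with the 113 arrays at 127 to 163 and the means of the other genotypes at 4.46 to 7.83, under the filter level.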

How the data were processed

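Expression was measured in whole embryos on Affymetrix arrays, 20 in all, with 8 in the main comparison. The authors deposited 1 linear signal intensity per probe set. These came from MAS5, per the submitters' processing notes. The version of MAS5 and the array's genome build are not stated there, and positions are therefore left out. The number of arrays limits the precision.

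After 44 control probe sets were left out, 12442 of 14010 probe sets had a single gene symbol, 327 several and 1197 none; 12393 matched the RefSeq Release 6 gene table, which supplied symbols, chromosome arms and gene order. The brightest probe set over all arrays stood for each of 10843 genes. The lowest 25% of probe sets (signal under 9.29) were left out, leaving 8356 genes. The filter used the mean over all 20 arrays, so a gene could pass it through 1 bright genotype. Of the 617 genes called against the control, 25 had a 113 mean and 16 a control mean under that level. limma 3.58.1 (R 4.3.3) fitted log2(signal + 16) with 1 mean per genotype over all 20 arrays (15 residual degrees of freedom) and eBayes with a trend. A fold change on this scale understates the change of dim genes. Genes were called at a Benjamini-Hochberg adjusted p under 0.05. The procedure was tested on simulated data. Tables and plots used python 3.11.15, pandas 2.3.3, numpy 2.4.6 and matplotlib 3.10.9.

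The genes named are the 15 largest changes each way against the control with non-overlapping arrays, the 4 largest each way against 65, 424 and the null, up to 8 each way among genes apart from all 4 genotypes, and the members of each list with the lowest p (at most 6). The members and lists were chosen with earlier results of these data known. Replicate numbers were not taken to pair samples: deviations of same-numbered 113 and control arrays correlated at 0.0808, 0.0847, -0.00967 and 0.173. Alternatives covered the pseudocount (1 and 64), the filter, normalisation, probe set summary, arrays fitted, and replicate, day and module blocks. Each array of 113 and of the control was also left out in turn, but no array of 65, 424 or the null was. The run record of replicate 4 of 65 holds an abort entry, and that array was kept. Run records gave day and module, and day 3 arrays were hybridised on an earlier day.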

Additional observations from a re-analysis of the deposited data

Results flagged for a closer look

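In 240 groups of 4 arrays, those of 113 and of the control for 120 genes named, 14 arrays lay far from the other 3 by Dixon's criterion, and chance marks about 1 group in 20. In the control, replicate 4 stood low for mwh (60.89, the others 75.6 to 77.6), CG6912 (103.4, the others 115 to 116), Mtk (11.48, the others 56.0 to 69.1) and verm (1730, the others 1963 to 1974), and high for usp (159.7, the others 111 to 115). Control replicate 1 stood high for bi (29.42, the others 4.28 to 6.04) and Eno (692.2, the others 616 to 628), and control replicate 3 low for CG2233 (5.769, the others 19 to 22.5). Control replicate 2 stood low for Obsc (21.21, the others 32.3 to 33.6). In 113, replicate 4 stood low for jhamt (1.092, the others 11.5 to 12.9), Tmhs (69.5, the others 91.2 to 96.1) and SPE, a serine protease of the immune response (99.33, the others 178 to 196), and high for Prosbeta2R2 (8.735, the others 4.72 to 5.31). Replicate 3 of 113 stood high for GluRIIB (14.95, the others 1.5 to 2.75). The cause of these deviations was not tested.

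Outside the genes, 75 of 1112 probe sets without a single gene symbol were called between 113 and the control, 35 higher and 40 lower, with the log2 change furthest from 0 at -2.34. They are not named here.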

How the results depend on the processing

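All counts of calls kept within 1.5 times of their values under both pseudocounts, both filters, both normalisations, the mean of probe sets and the day and replicate blocks. With the module as a block the calls were 82 against the control (29 higher, 53 lower), 63 against 65, 311 against 424 and 576 against the null, 4 genes were apart from all other genotypes, and chromosome 2 held 15.85%. When only the 2 genotypes compared were fitted, 92 were called against 65. Leaving out 1 array of 113 or of the control gave 90 to 145 calls against 65, 470 to 538 against the control and 7 to 14 genes apart. How these counts depend on single arrays of 65, 424 or the null was not tested. The replicate block gave 733 calls against the control and lost, of the genes named, that of LysE (adjusted p = 0.0538). Of 151 gene results 68 kept their direction and side of the threshold in all 19 alternatives in which they were tested, and 116 did so apart from the module block. The stricter filter tested 112 of them. The 2 genes that reversed were tmod, -0.10 with the mean of its probe sets, and Zasp52, not called in any setting, from 0.08 to -0.0912 with the module as a block and between -0.0161 and 0.216 with replicate 2 or 4 of 113 left out. The cause of these shifts was not tested. Signals under 9.29 limit the size of changes such as those of TpnC73F and Drsl5.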

Other observations

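Genes called in the same direction were next to each other in the tested gene order in 38 places. The runs of 3 were CG5567, MED19 and CG7430, and verm, serp and SREBP, higher in 113 on 3L, and Nepl18, Nepl19 and Nepl21, neprilysin-like genes, lower on 3R. Nepl18 went from 122 in the control to 77.4 in 113 (log2 change -0.57). GstD9 and GstD1 were such a pair, and so were GstD3 and GstD4 on 3R, where GstD9 had a log2 change of -1.69. Some such places arise without clustering, as 7.38% of all genes tested were called and 11% of those on chromosome 3. How many was not worked out, and no test of this clustering was made.

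Of the visible marker genes of the control stock, cn and px had a probe set bright enough to test, and neither passed the test. For px the log2 change was -0.16 (adjusted p = 0.293).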
